A study of Mus musculus with 8 samples.

Results

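The 4 arrays of mouse germ cells caught in culture, 2 at Day3 and 2 at Day6, were compared with the 4 arrays of the cells that stand at either end of the conversion, 2 of freshly isolated E11.5 PGC and 2 of EG. These are all 8 arrays of the study, and they were assigned by their titles alone, with no measured value used. The comparison asked whether converting cells pass through a state of their own: a transcript belonged to it only where the mean of the cultured groups differed in the same direction from E11.5 PGC and from EG. All groups carried a Nanog-GFP reporter and were labelled as primordial germ cell samples, including EG. The titles give Day3, Day6 and EG the name 2i+A83, which the labels spell out as 1 µM PD325901, 3 µM CHIR99021 and 250 nM A83-01. The growth medium listed was Knockout DMEM with 15% KSR, LIF and bFGF. The labels repeat this medium and treatment for every sample, E11.5 PGC included, so they do not say which cells had met the inhibitors at harvest. The study's design text says that candidate pluripotent cells were sorted during culture, and the labels used here name no sorting marker, no feeder layer and no number of embryos, cultures or EG lines.

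Primordial germ cells are the embryonic founders of eggs and sperm, and although they express much of the pluripotency network they do not multiply without limit outside the embryo. In culture a minority of them can convert to embryonic germ (EG) cells, which self-renew and contribute to all tissues much as embryonic stem cells do. PD325901 blocks the kinase MEK, CHIR99021 blocks GSK3 and so stabilises beta-catenin, and A83-01 blocks the receptors for Activin, Nodal and TGF-beta, whose target genes include the feedback inhibitors Lefty1 and Smad7.

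Each array held between 21126 and 22404 of 23473 probes with a value, and the array medians of the deposited intensity, which the authors had scaled, lay between 19.99 and 20.01. The tested set was the 19524 probes with a value on all 8 arrays. Array names fall into 2 series: A holds both EG arrays and the first replicate of each other group, and B holds the second replicates without EG. Nanog was bright everywhere, at 1520.2 and 1707 in E11.5 PGC, 2671 and 4321 on Day3, 4294 and 8992 on Day6 and 2422 and 4183 in EG. Ddx4 (Vasa), an RNA helicase of germ cells, read 626 and 498 in E11.5 PGC, 277 and 175 on Day3, 187 and 182 on Day6 and 201 and 191 in EG, and markers of gonadal somatic cells summed to between 67.0 and 98.5 on every array. Nothing in the labels says that the 2 arrays of a group came from separate animals or cultures, so the p-values measure the spread between these samples, which may be technical. In bulk RNA, fewer cells of a type and less RNA per cell cannot be told apart.

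Cultured cells were called different from both ends in a small set of transcripts: 11 probes were higher and 26 lower, 37 of 19524 tested (0.190% called, 0.0563% higher and 0.133% lower). The higher ones all carry gene names and were led by the transcription factor genes Spic and Plagl1 and the membrane protein gene Mal. Among the lower ones, an unnamed probe lay lowest, and those with gene names were led by Lefty1, the double homeobox gene Duxbl1, the imprinted non-coding RNA H19 and the nephrin gene Nphs1. The call required an adjusted p under 0.05 from limma against each end, with Benjamini-Hochberg adjustment over all probes tested. For comparison, 7.53% of probes differed between culture and E11.5 PGC (791 higher, 4.05%; 680 lower, 3.48%) and 1.03% between culture and EG (48 higher, 0.246%; 154 lower, 0.789%). Fewer probes passed against EG than against E11.5 PGC. EG and E11.5 PGC themselves differed in 11.2% of 20761 probes.

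**Figure D1:**
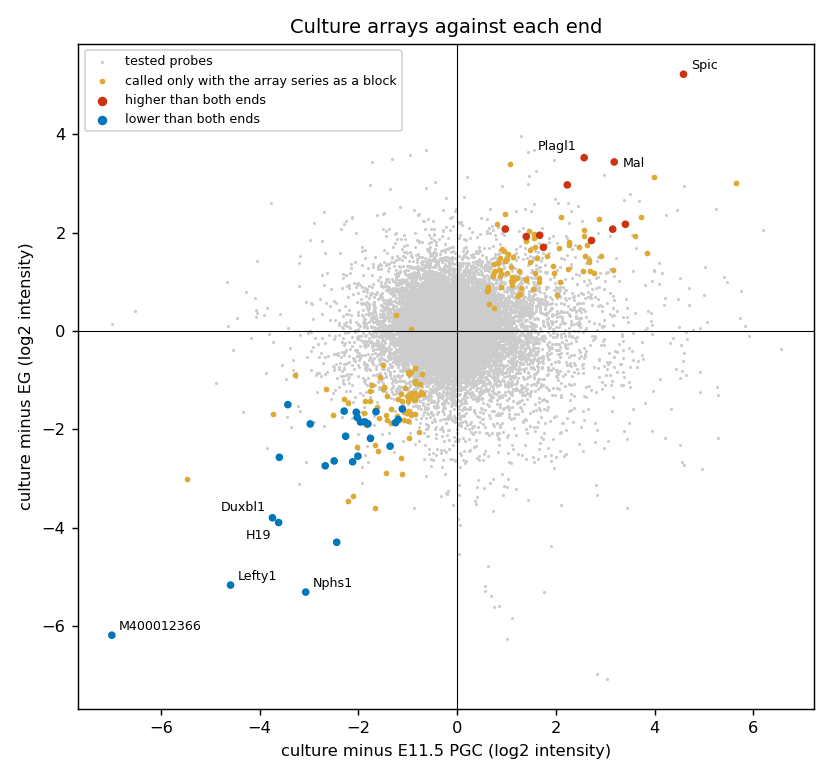
Each point is one of the 19524 tested probes; the x axis is the log2 difference of culture (mean of Day3 and Day6) from E11.5 PGC and the y axis that from EG. Red points (11) are higher and blue points (26) lower than both ends, and yellow points (152) were called only with the array series as a block; Spic sits alone at the upper right, and Lefty1, Nphs1 and the unnamed probe M400012366 at the lower left.

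The list is short and its length depends on single arrays and on the array series. With the array series as a block, 189 probes were called (0.968%; 90 higher, 0.461%, and 99 lower, 0.507%), among them all 37. EG has arrays in series A only, so blocked values against EG assume an equal series effect in all groups. All 37 had the same sign of difference from E11.5 PGC within series A and within series B, which the call on these same arrays makes likely. Leaving out EG replicate 1 or 2 left 0 higher probes and 2 or 0 lower ones. Without E11.5 PGC replicate 1 or 2 there were 2 or 0 higher and 5 or 4 lower, without Day3 replicate 1 or 2 there were 1 or 5 higher and 14 or 10 lower, and without Day6 replicate 1 or 2 there were 22 or 19 higher and 30 or 17 lower. Every one of the 37 kept its direction without each array in turn, which the call also makes likely. Of the 37, 11 kept their call in none of these 8 fits. Nphs1 kept its call in 7 of 8, Lefty1 and Duxbl1 in 6, and Spic and Klk8 in 5.

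Spic encodes an Ets-family transcription factor best known from macrophages of the splenic red pulp. The arrays gave 10.8 and 4.63 in E11.5 PGC, 78.4 and 156 on Day3, 231 and 294 on Day6 and 2.67 and 7.75 in EG. The 4 cultured arrays lay far above the 4 end arrays, the lowest cultured value being at Day3. Spic rose by 4.59 ± 0.55 against E11.5 PGC and 5.22 ± 0.55 against EG (adjusted p = 0.00557 and 0.0149) (log2 differences with their standard errors, from 2 arrays in each group), so that even the smaller difference was 24.0-fold. EG and E11.5 PGC did not differ by a call (log2 difference -0.63 ± 0.63, adjusted p = 0.573).

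Plagl1 (Zac1) is a paternally expressed imprinted gene for a zinc finger transcription factor. It read 903 and 657 on Day3 and 2152 and 2258 on Day6, against 314 and 153 in E11.5 PGC and 78.2 and 164 in EG. Every cultured array was above every end array, and both Day6 arrays were above both Day3 arrays. The rise was 2.57 ± 0.41 against E11.5 PGC and 3.52 ± 0.41 against EG (adjusted p = 0.0134 and 0.0206).

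Mal encodes a proteolipid of apical membrane sorting. Its values were 3.24 and 2.66 among E11.5 PGC, 53.7 and 37.2 on Day3, 8.63 and 29.3 on Day6 and 1.77 and 3.43 among EG, so that both ends lay near the floor, taken here as an intensity under 4.24 on both arrays of a group. The groups did not overlap, with Day6 replicate 1 the lowest cultured array. Mal rose by 3.18 ± 0.52 against E11.5 PGC and 3.44 ± 0.52 against EG (adjusted p = 0.0146 and 0.0389). Because the ends were so dim, these fold changes depend on the scale: with a pseudocount of 2 they were 2.56 and 2.69.

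A cell adhesion gene and a phosphatase subunit gene belonged to the same side. Ceacam10, a member of the carcinoembryonic antigen family of adhesion proteins, read 343 and 233 on Day3 and 209 and 471 on Day6, against 65.0 and 61.8 in E11.5 PGC and 29.0 and 49.8 in EG, a rise of 2.23 ± 0.40 against E11.5 PGC and 2.97 ± 0.40 against EG (adjusted p = 0.0205 and 0.0290). Ppp2r2c, a regulatory subunit of protein phosphatase 2A, read 165 and 141 on Day3 and 203 and 307 on Day6, against 17.0 and 19.8 in E11.5 PGC and 39.0 and 48.2 in EG. It rose by 3.41 ± 0.27 against E11.5 PGC and 2.17 ± 0.27 against EG (adjusted p = 0.00165 and 0.0241), and EG was itself above E11.5 PGC by 1.24 ± 0.31 (adjusted p = 0.0461).

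The higher set also held 3 genes of protein, redox and genome maintenance. Cryab, the small heat shock protein alpha B-crystallin, read 7.41 and 7.35 in E11.5 PGC, 50.5 and 28.5 on Day3, 68.7 and 56.9 on Day6 and 12.4 and 14.9 in EG, and rose by 2.72 ± 0.29 against E11.5 PGC and 1.84 ± 0.29 against EG (adjusted p = 0.00395 and 0.0428). Gss, glutathione synthetase, was even within the cultured arrays and even within the ends. It read 151 and 116 in E11.5 PGC, 518 and 376 on Day3, 479 and 418 on Day6 and 139 and 134 in EG, and rose by 1.75 ± 0.25 against E11.5 PGC and 1.70 ± 0.25 against EG (adjusted p = 0.00962 and 0.0381). Fancm, a DNA translocase of the Fanconi anaemia pathway, read 39.0 and 60.6 in E11.5 PGC, 148 and 143 on Day3, 144 and 191 on Day6 and 35.0 and 46.3 in EG, and rose by 1.67 ± 0.29 against E11.5 PGC and 1.95 ± 0.29 against EG (adjusted p = 0.0166 and 0.0378). None of these 3 overlapped between cultured and end arrays, which the naming rule required.

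The last 3 of the 11 were the small GTPase genes Rab20 and Rab38 and the complement inhibitor gene Cd59a, each of them high mainly on 1 day. Rab20 read 5.50 and 3.81 in E11.5 PGC, 77.1 and 110.4 on Day3, 15.3 and 21.0 on Day6 and 10.7 and 8.78 in EG. Its Day3 arrays stood well above all others, and Day6 was only just above EG. Rab38, a GTPase of melanosome formation, read 20.5 and 19.9 in E11.5 PGC, 24.7 and 24.4 on Day3, 111 and 121 on Day6 and 15.1 and 13.2 in EG, with Day6 as the high group and Day3 close to E11.5 PGC. Cd59a read 192 and 212 in E11.5 PGC, 582 and 675 on Day3, 262 and 241 on Day6 and 104 and 86.0 in EG, again highest at Day3. The rises of the culture mean were 3.15 ± 0.29 against E11.5 PGC and 2.07 ± 0.29 against EG (adjusted p = 0.00272 and 0.0338) for Rab20, 1.40 ± 0.21 against E11.5 PGC and 1.92 ± 0.21 against EG (adjusted p = 0.0117 and 0.0187) for Rab38, and 0.98 ± 0.23 against E11.5 PGC and 2.07 ± 0.23 against EG (adjusted p = 0.0459 and 0.0174) for Cd59a, the smallest of the set.

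**Figure D2:**
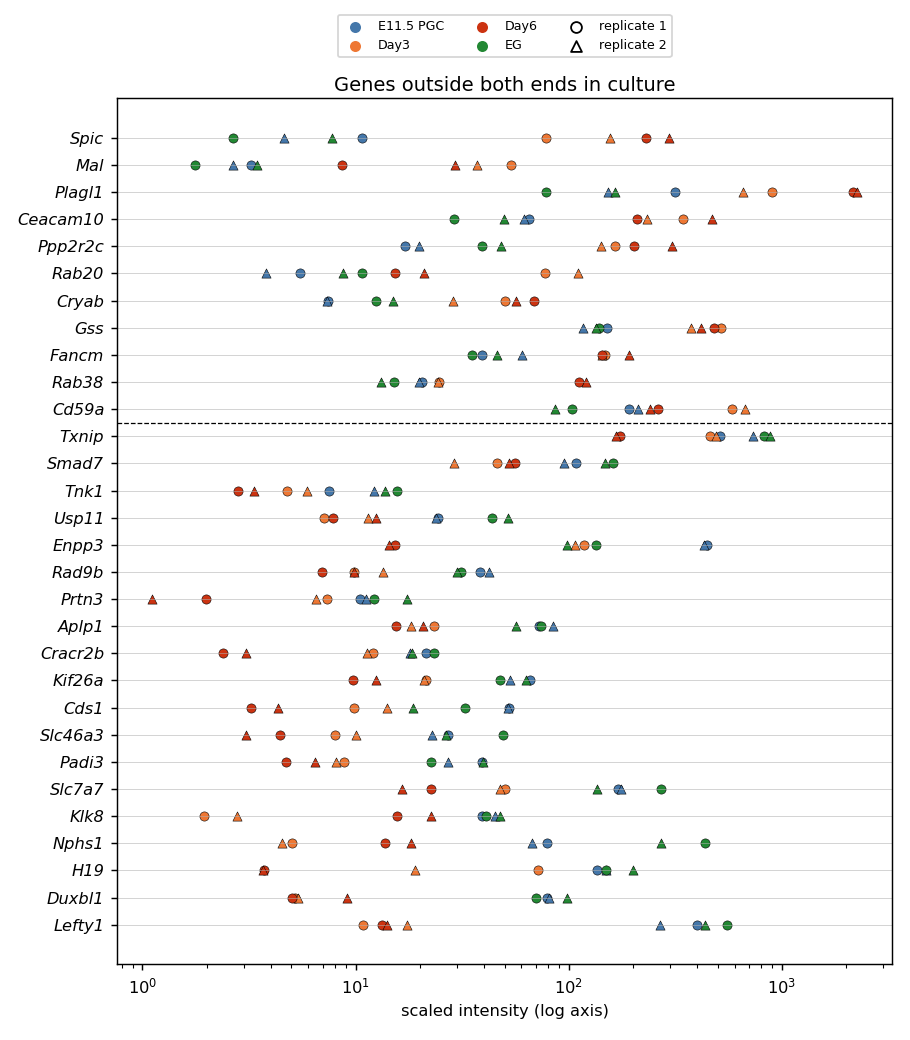
Scaled intensity (log axis) of the 30 named genes outside both ends, 1 point per array, coloured by group and shaped by replicate. Genes above the dashed line are higher in culture and those below are lower; Spic, at 78.4 to 294 in culture and at most 10.8 in the end arrays, has the widest gap on the upper side, and Enpp3 is the one gene whose cultured and end arrays overlap.

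The promoters of the 4 genes with the largest rise are shown because all 4 genes rose on every cultured array above both ends. They are the 250 bases upstream of the RefSeq start, from the GRCm38.p6 table, written 5′ to 3′ on the gene's strand, with matches to any of 4 motifs in capitals. Spic lies on the minus strand (chr10:88683024-88683273), Mal on the minus strand (chr2:127656696-127656945), Plagl1 on the plus strand (chr10:13090582-13090831) and Ceacam10 on the plus strand (chr7:24776917-24777166, the first of 2 starts).
Spic: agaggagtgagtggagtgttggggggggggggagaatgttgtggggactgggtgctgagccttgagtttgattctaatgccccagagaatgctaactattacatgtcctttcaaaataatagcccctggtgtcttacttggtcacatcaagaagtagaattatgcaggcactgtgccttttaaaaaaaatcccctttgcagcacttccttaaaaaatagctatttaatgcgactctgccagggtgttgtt
Mal: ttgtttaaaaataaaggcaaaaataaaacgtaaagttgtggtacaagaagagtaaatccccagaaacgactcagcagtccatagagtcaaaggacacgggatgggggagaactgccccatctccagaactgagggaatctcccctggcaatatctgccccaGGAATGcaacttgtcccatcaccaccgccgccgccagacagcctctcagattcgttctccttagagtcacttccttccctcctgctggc
Plagl1: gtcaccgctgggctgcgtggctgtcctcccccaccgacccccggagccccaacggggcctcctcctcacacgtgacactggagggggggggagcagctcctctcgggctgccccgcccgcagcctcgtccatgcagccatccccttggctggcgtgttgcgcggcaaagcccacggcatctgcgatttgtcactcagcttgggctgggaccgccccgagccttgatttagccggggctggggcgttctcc
Ceacam10: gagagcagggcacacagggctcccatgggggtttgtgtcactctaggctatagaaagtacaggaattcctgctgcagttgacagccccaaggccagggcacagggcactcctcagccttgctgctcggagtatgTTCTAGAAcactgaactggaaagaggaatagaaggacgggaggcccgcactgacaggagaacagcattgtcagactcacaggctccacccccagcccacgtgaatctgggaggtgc
The motifs were TGANTCA (AP-1), GGAATG (TEAD), TGATGNAA (C/EBP-ATF) and TTCNNGAA (2 facing units of a heat shock element), searched on both strands. Mal held GGAATG from 89 to 84 bases upstream, Ceacam10 held TTCTAGAA from 116 to 109 bases upstream, and Spic and Plagl1 held none of the 4 in this window. Among the 9 higher genes with a window in the table, 3 held GGAATG (Mal, Rab20 and Fancm), 2 held TTCNNGAA (Ceacam10 and Fancm) and 0 held TGANTCA or TGATGNAA. Among 14 lower genes with a window, 2 held GGAATG, 1 held TGATGNAA and 0 held the other two. Over all 32851 windows of this length the shares were 6.75% for TGANTCA, 12.6% for GGAATG, 3.45% for TGATGNAA and 7.17% for TTCNNGAA. A gene with several starts counted when any of its windows matched, so the counts of genes and the shares of windows are unlike measures. A match describes the letters only.

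On the lower side stood Lefty1, a secreted antagonist of Nodal that is itself switched on by Nodal signalling. The arrays gave 400.4 and 269 in E11.5 PGC, 10.8 and 17.4 on Day3, 13.2 and 14.0 on Day6 and 551 and 434 in EG. All 4 cultured arrays read 17.4 or less and all 4 end arrays 269 or more, and Day6 minus Day3 was -0.01 ± 0.35 on the log2 scale. Lefty1 fell (log2 difference -4.59 ± 0.30 from E11.5 PGC and -5.16 ± 0.30 from EG, adjusted p = 0.00132 and 0.00293), and the smaller of the 2 differences of means was 24.1-fold. Smad7, the inhibitory Smad of the same pathway, read 108 and 95.4 in E11.5 PGC, 46.1 and 28.9 on Day3, 56.0 and 52.3 on Day6 and 161 and 149 in EG, and fell (log2 difference -1.19 ± 0.26 from E11.5 PGC and -1.80 ± 0.26 from EG, adjusted p = 0.0410 and 0.0378). Lefty1 and Smad7 are the 2 called members among 16 tested targets of TGF-beta and Activin signalling (0.133% of all probes were called lower). EG, whose title names the same inhibitors, read above E11.5 PGC on both arrays for both genes, without a call in limma. EG minus E11.5 PGC was 0.57 ± 0.35 for Lefty1 and 0.61 ± 0.31 for Smad7 (adjusted p = 0.343 and 0.252). The part of the inhibitors in these levels was not tested.

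Duxbl1, a mouse double homeobox gene, read 79.1 and 80.6 in E11.5 PGC, 5.17 and 5.39 on Day3, 5.03 and 9.11 on Day6 and 69.9 and 98.7 in EG. The separation of culture from the ends was almost the same on both days, and Duxbl1 fell (log2 difference -3.74 ± 0.31 from E11.5 PGC and -3.80 ± 0.31 from EG, adjusted p = 0.00178 and 0.00931). H19, a maternally expressed imprinted non-coding RNA, read 136 and 150.1 in E11.5 PGC, 72.1 and 18.97 on Day3, 3.70 and 3.67 on Day6 and 149.8 and 201 in EG. Its Day6 arrays were near the floor while the 2 Day3 arrays differed widely from each other, and it fell (log2 difference -3.62 ± 0.50 from E11.5 PGC and -3.89 ± 0.50 from EG, adjusted p = 0.00823 and 0.0266). H19 and Plagl1 are both imprinted genes, from opposite parental alleles, and stood on opposite sides of the ends.

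Nphs1 encodes nephrin, the adhesion protein of the kidney slit diaphragm. It read 78.7 and 67.0 in E11.5 PGC, 5.05 and 4.50 on Day3, 13.7 and 18.1 on Day6 and 436 and 269.7 in EG, lowest at Day3 and highest in EG. It fell (log2 difference -3.07 ± 0.28 from E11.5 PGC and -5.31 ± 0.28 from EG, adjusted p = 0.00271 and 0.00236), and EG exceeded E11.5 PGC by 2.24 ± 0.33 (adjusted p = 0.00924). Klk8, a kallikrein serine protease, read 39.1 and 45.3 in E11.5 PGC, 1.94 and 2.78 on Day3, 15.6 and 22.7 on Day6 and 41.0 and 47.5 in EG. It was near the floor at Day3 and partly back at Day6, while the 2 ends lay together. Klk8 fell (log2 difference -2.67 ± 0.28 from E11.5 PGC and -2.74 ± 0.28 from EG, adjusted p = 0.00348 and 0.0142).

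The remaining lower genes named by rule were a mixed group of transporters and enzymes. Slc7a7, a subunit of a cationic amino acid transporter, read 169.8 and 176 in E11.5 PGC, 50.0 and 47.7 on Day3, 22.7 and 16.5 on Day6 and 271 and 136 in EG, and fell (log2 difference -2.49 ± 0.33 from E11.5 PGC and -2.64 ± 0.33 from EG, adjusted p = 0.00746 and 0.0241). Slc46a3, a lysosomal transporter, read 27.2 and 22.7 among E11.5 PGC, 8.001 and 10.02 on Day3, 4.42 and 3.06 on Day6 and 49.2 and 26.6 among EG. Padi3, which converts arginine to citrulline in proteins, read 39.1 and 27.2 among E11.5 PGC, 8.82 and 8.07 on Day3, 4.70 and 6.47 on Day6 and 22.7 and 39.7 among EG. In all 3 the cultured arrays lay below the end arrays, which the naming rule required, and Day6 lay below Day3. Slc46a3 fell (log2 difference -2.12 ± 0.33 from E11.5 PGC and -2.66 ± 0.33 from EG, adjusted p = 0.0121 and 0.0241), as did Padi3 (log2 difference -2.26 ± 0.32 from E11.5 PGC and -2.14 ± 0.32 from EG, adjusted p = 0.00912 and 0.0383).

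Cds1, which makes the phospholipid precursor CDP-diacylglycerol, read 52.4 and 51.9 among E11.5 PGC, 9.88 and 14.1 on Day3, 3.24 and 4.31 on Day6 and 32.6 and 18.5 among EG. Kif26a, an atypical kinesin, read 66.1 and 53.2 among E11.5 PGC, 21.4 and 21.0 on Day3, 9.68 and 12.52 on Day6 and 47.8 and 63.4 among EG. Cracr2b, a relative of a regulator of store-operated calcium channels, read 21.5 and 17.9 among E11.5 PGC, 12.01 and 11.3 on Day3, 2.38 and 3.06 on Day6 and 23.4 and 18.4 among EG, and Aplp1, of the amyloid precursor protein family, read 72.4 and 84.4 among E11.5 PGC, 23.4 and 18.3 on Day3, 15.5 and 20.7 on Day6 and 74.3 and 56.8 among EG. None of these 4 overlapped with the ends, which the naming rule required. The smaller of the 2 differences was -1.89 ± 0.32 for Cds1, -1.85 ± 0.25 for Kif26a and -1.76 ± 0.26 for Aplp1, each from EG, and -1.80 ± 0.25 for Cracr2b, from E11.5 PGC. The adjusted p of Cds1 against EG was 0.0498, at the edge of the threshold.

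Outside the naming rule, and listed here only to complete the set, the lower calls also included Prtn3 (proteinase 3), Rad9b (a paralogue of the checkpoint protein Rad9), Usp11 (a deubiquitinating enzyme), Tnk1 (a tyrosine kinase) and Txnip (thioredoxin-interacting protein), with smaller log2 differences between -1.11 and -1.75. Enpp3, an ectonucleotide pyrophosphatase, was called on the mean of the 2 days although its Day3 arrays overlapped with EG: it read 447 and 430.4 in E11.5 PGC, 118 and 107 on Day3, 15.3 and 14.3 on Day6 and 134 and 98.3 in EG. Another 7 lower probes carry no gene symbol in the tables used here. The lowest of all 37 was 1 of these, probe M400012366, singled out after its values were seen: it read 902 and 527 in E11.5 PGC, 3.43 and 4.90 on Day3, 8.17 and 6.24 on Day6 and 449 and 344 in EG. It fell (log2 difference -6.99 ± 0.32 from E11.5 PGC and -6.18 ± 0.32 from EG, adjusted p = 0.000428 and 0.00236).

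The 2 ends were about as close to each other for these transcripts as for others. The mean of EG lay within 2-fold of E11.5 PGC for 8 of the 11 higher and 21 of the 26 lower probes, and for 74.6% of all 19524. EG minus E11.5 PGC was called for 2 higher and 3 lower probes (11.2% among all probes, as above): EG was above for Ppp2r2c, Nphs1 and an unnamed probe, M400011310, and below for Cd59a and Enpp3. When both contrasts were combined into 1 test and adjusted once, 3 probes remained, all lower: M400012366, Lefty1 and Duxbl1.

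Taken alone, Day3 lay outside both ends for 23 of 20239 probes (0.114%; 13 higher, 0.0642%, and 10 lower, 0.0494%) and Day6 for 20 of 19806 (0.101%; 5 higher, 0.0252%, and 15 lower, 0.0757%), and 7 probes were called on both days. These 7 were Spic and Ppp2r2c on the higher side and Lefty1, Duxbl1, Nphs1, M400012366 and the unnamed probe M400011310 on the lower side. Among genes with a symbol, the highest at Day3 were Spic, Mal, Rab20, Hsh2d (an adaptor protein of haematopoietic cells) and Mlkl (the executioner of necroptosis), and the lowest were Lefty1, Nphs1, Duxbl1, Klk8 and 4933402E13Rik. M400012366 lay below all of these on both days. Mlkl read 1.22 and 2.27 in E11.5 PGC, 11.9 and 9.43 on Day3, 7.59 and 3.13 on Day6 and 1.30 and 1.58 in EG, and Hsh2d 2.43 and 1.34 in E11.5 PGC, 15.9 and 23.9 on Day3, 6.72 and 5.28 on Day6 and 1.80 and 3.72 in EG, both near the floor at both ends. At Day6 the highest genes with a symbol were Spic, Plagl1, Ppp2r2c and Rab38, and the lowest Lefty1, H19, Duxbl1, Slc7a7 and Enpp3. A probe called on 1 day and not on the other was not thereby shown to differ between the days. With the array series as a block the counts were 153 at Day3 (0.756%) and 184 at Day6 (0.929%).

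The 2 culture days were compared directly. No probe of 20015 passed in limma without the block (1783 had an unadjusted p under 0.05), and 361 (1.80%) passed with the array series as a block. Of the 37 probes outside both ends, 10 were among the 361. Rab38, Klk8 and Nphs1 were higher at Day6 than at Day3, by 2.24 ± 0.25, 3.02 ± 0.32 and 1.72 ± 0.33. Rab20, Cd59a, H19, Enpp3, Cracr2b, Prtn3 and Txnip were lower at Day6. H19 differed by -3.33 ± 0.57, Rab20 by -2.36 ± 0.34 and Enpp3 by -2.92 ± 0.27. The standard errors in this paragraph are from the fit without the block. None of the 10 passed without the block, and with the block the count was 0 without any single Day3 or Day6 array.

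**Figure D3:**
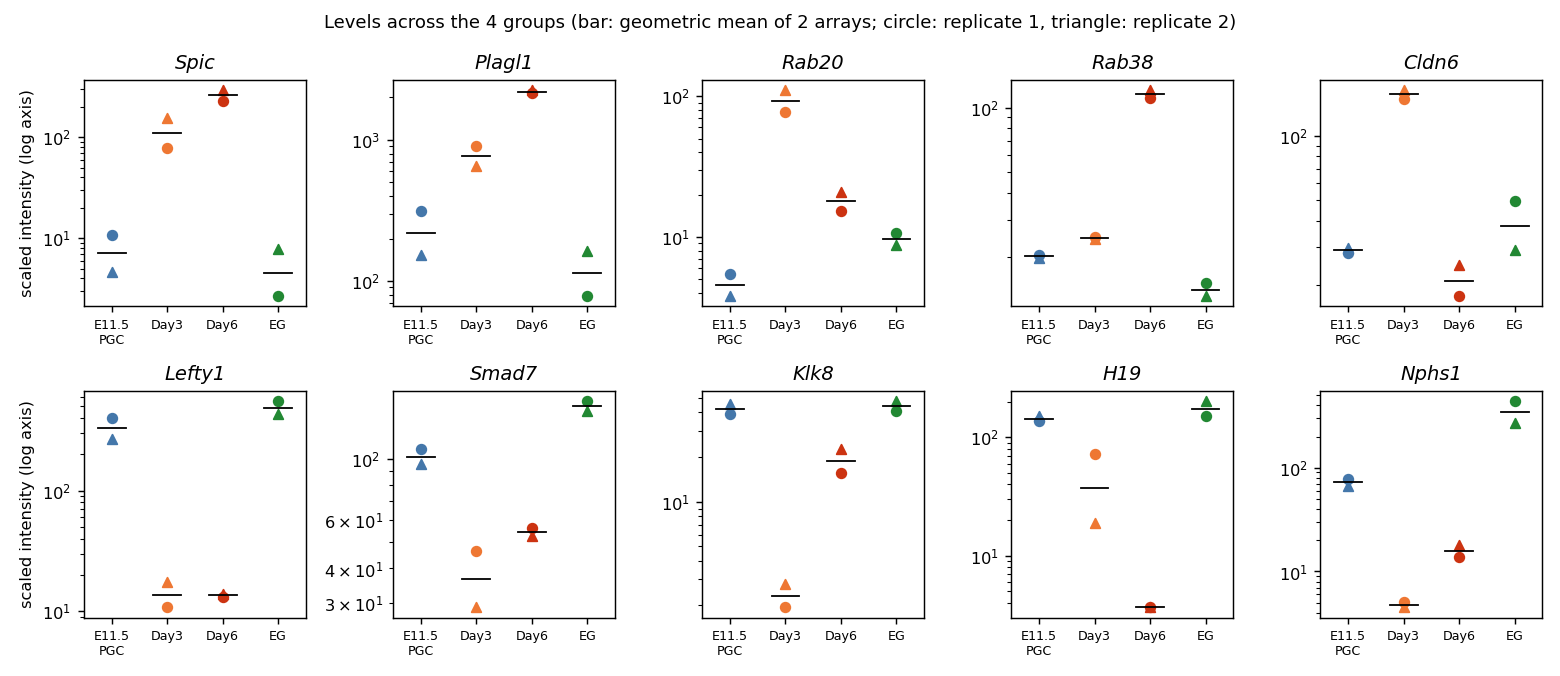
Scaled intensity (log axis) of 10 genes in the 4 groups; points are arrays (circle, replicate 1; triangle, replicate 2) and bars are geometric means of 2 arrays. Spic and Plagl1 are high on both days and highest at Day6, Rab20 and Cldn6 are high at Day3, Rab38 at Day6, and Lefty1, Smad7, Klk8, H19 and Nphs1 are low in culture, Klk8 most at Day3 and H19 most at Day6.

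For a few transcripts the arrays of the 2 days lay on opposite sides of all end arrays. How many probes would show this without any change was not tested. On 53 of 19524 probes both arrays of one day lay above all 4 end arrays and both arrays of the other day below them, 30 with Day3 above and 23 with Day6 above. Of these only Cldn6, a tight junction protein of early embryonic epithelia, was named by rule: it read 28.2 and 29.9 in E11.5 PGC, 149 and 164 on Day3, 17.8 and 24.8 on Day6 and 49.4 and 29.2 in EG. Day3 stood above every end array and Day6 below every one. Cldn6 was called higher than both ends at Day3 (log2 difference 2.43 ± 0.34 from E11.5 PGC and 2.04 ± 0.34 from EG), not at Day6, and its difference between the days passed with the array series as a block.

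Of the 152 probes called only with the array series as a block, those among the 12 genes highest by the smaller blocked difference, without overlap of arrays, were Ly6c1, Ly6f, Ddah1, Calcoco2, Gsto1, Hsh2d, Mlkl and C130074G19Rik. Ly6c1 and Ly6f are surface proteins of the Ly6 family, Ddah1 degrades asymmetric dimethylarginine, Calcoco2 (Ndp52) is an autophagy receptor and Gsto1 is a glutathione transferase. Ly6c1 read 32.9 and 15.2 in E11.5 PGC, 1225 and 584 on Day3, 4123 and 532 on Day6 and 246 and 78.7 in EG. It was above every end array in culture, but its 2 Day6 arrays differed by 2.95 on the log2 scale, replicate 1 being higher, and without the block its adjusted p against EG was 0.156. Ly6c1 and Ly6f are near neighbours in sequence, and how the probes separate such relatives is not given in the sources used here. Calcoco2 read 118 and 195 in E11.5 PGC, 1452 and 2689 on Day3, 1607 and 5420.1 on Day6 and 211 and 363 in EG, with replicate 2 the higher in every group, and Ddah1 read 34.3 and 29.1 in E11.5 PGC, 527 and 201 on Day3, 451 and 262 on Day6 and 58.8 and 93.5 in EG. Their differences were 3.99 ± 0.55 against E11.5 PGC and 3.13 ± 0.55 against EG (adjusted p = 0.00827 and 0.0557) for Calcoco2 and 3.41 ± 0.45 against E11.5 PGC and 2.17 ± 0.45 against EG (adjusted p = 0.00746 and 0.0759) for Ddah1, which miss the threshold against EG.

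On the lower side, Krt28, a keratin, and Pdlim3, a PDZ and LIM protein of the muscle Z-disc, were the block-only genes among the 12 lowest by the same measure. Pdlim3 read 87.2 and 89.6 in E11.5 PGC, 5.08 and 11.4 on Day3, 4.59 and 7.55 on Day6 and 16.1 and 28.6 in EG. It differed by -3.72 ± 0.42 against E11.5 PGC and -1.68 ± 0.42 against EG (adjusted p = 0.00450 and 0.114). Krt28 read 37.5 and 19.4 in E11.5 PGC, 9.40 and 3.12 on Day3, 10.1 and 5.06 on Day6 and 56.9 and 70.6 in EG. The cultured arrays of both lay below the end arrays, which the naming rule required. A second, dimmer Krt28 probe, near the floor in all groups, differed by 0.93 ± 0.39 from E11.5 PGC and -0.06 ± 0.39 from EG without a call. The 2 Krt28 probes therefore disagree. For 2 of the 152 probes the differences from the 2 ends had unlike signs before the series was taken into account.

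The gene lists for pathways and cell types were examined by counts and medians of their tested members, without a test of the list. Only 2 of 27 lists held a called member: targets of TGF-beta and Activin (Lefty1 and Smad7 of 16) and primed epiblast genes (Lefty1 of 12). Over all probes 0.190% were called. Medians of log2 difference over all tested probes were -0.15 against E11.5 PGC and 0.02 against EG. The TGF-beta and Activin targets had medians of -1.05 and -0.25, and the second changed sign, to 0.05 without Day6 replicate 2, to 0.02 without EG replicate 1, and to 0.21 both in series A alone and without both series B culture arrays. Against E11.5 PGC, 3 of the 16 were called higher (Ccn1, Ccn2 and Nodal) and 5 lower (Lefty1, Smad7, Skil, Id3 and Msx2), of which Ccn2, Nodal, Skil, Id3 and Msx2 were named after their values were seen. Against EG, 0 were higher and 2 lower. Over all probes, 4.05% were called higher and 3.48% lower than in E11.5 PGC, and 0.246% higher and 0.789% lower than in EG. With the array series as a block Ccn1 (Cyr61), a matrix protein that is also a target of YAP, was called higher than both ends. It read 29.6 and 33.5 in E11.5 PGC, 159 and 164 on Day3, 279 and 228 on Day6 and 62.5 and 93.3 in EG, and differed by 2.68 ± 0.26 against E11.5 PGC and 1.40 ± 0.26 against EG (adjusted p = 0.00294 and 0.0620).

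Targets of p53 with inhibitors of cyclin-dependent kinases stood above both ends on average without any single call. Of 23 tested members, 16 had a culture mean above both (3821 of 19524 among all probes). In 6, the cultured arrays lay above all end arrays (2.53% of all probes did so), and 0 passed the call (0.190% of all probes did). Against E11.5 PGC 10 were called higher and 1, Cdkn1c, lower, beside 4.05% and 3.48% of all probes. Against EG 0 were called in either direction, beside 1.03% of all probes, and the medians were 1.14 and 0.36. The 6 were Eda2r, Cdkn1a, Plk2, Phlda3, Fas and Cdkn2a, the last 2 named after their values were seen. Cdkn1a, which encodes the cell cycle inhibitor p21, read 71.6 and 31.1 in E11.5 PGC, 357 and 209 on Day3, 361 and 219 on Day6 and 115 and 122 in EG. It differed by 2.55 ± 0.42 against E11.5 PGC and 1.23 ± 0.42 against EG (adjusted p = 0.0148 and 0.218), and was called higher than both ends with the array series as a block. Eda2r, a death domain receptor, read 4.72 and 6.50 in E11.5 PGC, 42.9 and 61.3 on Day3, 31.8 and 60.2 on Day6 and 22.9 and 17.1 in EG, and differed by 3.10 ± 0.35 against E11.5 PGC and 1.26 ± 0.35 against EG (adjusted p = 0.00448 and 0.144), with no call against EG in either model.

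In the lists of interferon, NF-kB and contractile genes, some members were called against E11.5 PGC, most of them higher, and 0 against EG without the block. The shares over all probes were 4.05% higher and 3.48% lower against E11.5 PGC, and 1.03% in either direction against EG. Against E11.5 PGC, 4 of 16 MHC class I and interferon genes were higher and 1 lower, 2 of 16 acute phase and NF-kB genes were higher and 0 lower, and 8 of 26 YAP targets and contractile genes were higher and 1 lower. With the array series as a block, 1 interferon gene was higher and 1 lower than in EG, and 1 NF-kB and 2 YAP or contractile genes were higher. That fit called 362 of 19524 probes higher and 525 lower than in EG. The list of MHC class I and interferon genes had medians of 1.05 and 0.45 (16 tested), that of acute phase and NF-kB genes 0.85 and -0.01 (16 tested), and that of YAP targets and contractile genes 0.96 and 0.28 (26 tested), the first value against E11.5 PGC and the second against EG. Without Day6 replicate 1, the medians of MHC class I and interferon genes were 0.32 and 0.03, and the median of acute phase and NF-kB genes against E11.5 PGC was 0.37. The median of YAP targets and contractile genes against EG ranged from 0.14 to 0.52 without each array. Irf9, a subunit of the interferon-activated factor ISGF3, read 38.4 and 51.5 in E11.5 PGC, 107 and 138 on Day3, 88.1 and 97.3 on Day6 and 46.5 and 44.2 in EG, and Relb, an NF-kB subunit, read 34.3 and 35.4 in E11.5 PGC, 88.3 and 67.1 on Day3, 74.1 and 69.7 on Day6 and 38.0 and 35.0 in EG. Both were higher on every cultured array than on any end array, passed against E11.5 PGC (adjusted p = 0.0268 and 0.0341), and were called above both ends only with the array series as a block. B2m, the light chain of MHC class I, read 17.0 and 29.3 in E11.5 PGC, 1727 and 610.0 on Day3, 3942 and 191 on Day6 and 504 and 385 in EG, so that its 2 Day6 arrays lay on either side of EG.

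Of the germ cell genes, 4 of 17 early and 6 of 21 later ones were called lower than in E11.5 PGC and 0 higher. Over all probes, 3.48% were called lower and 4.05% higher than in E11.5 PGC. Of the pluripotency genes, 5 of 16 core genes were called higher and 1 lower, and 7 of 20 naive regulators higher and 1 lower. Against EG the only member called in these lists was 1 naive regulator, Nr0b1, which was lower and is named after its value was seen. Among all probes, 0.789% were called lower than in EG and 0.246% higher. The early germ cell genes had medians of -0.84 and 0.19 (17 tested), later germ cell genes -0.96 and 0.58 (21 tested), core pluripotency genes 0.56 and -0.50 (16 tested) and naive regulators 0.89 and -0.01 (20 tested). Single arrays moved some of these: later germ cell genes had -0.41 against E11.5 PGC without E11.5 PGC replicate 1 and 0.24 against EG without EG replicate 1, core genes had -0.20 against EG without Day3 replicate 2, and naive regulators against EG ranged from -0.25 to 0.24. Mael, a germ cell protein of transposon silencing, was an exception with the array series as a block: it read 653 and 314 in E11.5 PGC, 172 and 107 on Day3, 164 and 82.3 on Day6 and 455 and 493 in EG, and differed by -1.85 ± 0.42 against E11.5 PGC and -1.91 ± 0.42 against EG (adjusted p = 0.0441 and 0.0857). Dnmt3a, a de novo DNA methyltransferase, was the other member called lower than both ends only with the block. It read 61.4 and 76.95 in E11.5 PGC, 12.6 and 36.8 on Day3, 19.8 and 29.0 on Day6 and 131 and 115 in EG, with Day3 replicate 1 the lowest, and differed by -1.60 ± 0.44 against E11.5 PGC and -2.43 ± 0.44 against EG (adjusted p = 0.0746 and 0.0578). Nanog differed by 1.51 ± 0.40 against E11.5 PGC and 0.53 ± 0.40 against EG (adjusted p = 0.0697 and 0.579), without a call.

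Targets of the 2 other inhibited kinases did not include a call outside both ends, beside 0.190% of all probes. Of 16 MEK/ERK targets, 3 (Dusp6, Etv4 and Spry1) had cultured arrays below all end arrays (3.21% of all probes did so). Against E11.5 PGC 3 of the 16 were called lower and 0 higher, and against EG 0 were called. Spry1, a feedback inhibitor of receptor tyrosine kinases, read 55.2 and 47.8 in E11.5 PGC, 18.6 and 10.5 on Day3, 9.68 and 6.48 on Day6 and 25.2 and 19.2 in EG. It fell against E11.5 PGC (log2 difference -2.29 ± 0.33, adjusted p = 0.00912) and differed from EG by -1.07 ± 0.33 (adjusted p = 0.174). Of 11 Wnt targets, 0 were called outside both ends, with medians of -0.27 and -0.03. Against E11.5 PGC 1 of the 11 was called lower and 0 higher, and against EG 0 were called. Over all probes the shares against E11.5 PGC were 3.48% lower and 4.05% higher, and 1.03% were called against EG.

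Metabolic lists held no member called outside both ends, beside 0.190% of all probes. Amino acid and one-carbon genes held 6 members called higher than in E11.5 PGC and 0 lower, and cholesterol synthesis genes 0 higher and 4 lower. Glycolysis and hypoxia genes held 3 higher and 1 lower, and lysosome and autophagy genes 3 higher and 0 lower. Over all probes these shares were 4.05% higher and 3.48% lower. Against EG, 1 glycolysis and hypoxia gene and 1 lysosome and autophagy gene were called lower and 0 higher. Over all probes, 0.789% were lower and 0.246% higher than in EG. Glycolysis and hypoxia genes had medians of -0.11 and -1.17 (23 tested), cholesterol synthesis genes -0.83 and -0.13 (14 tested), amino acid and one-carbon genes 1.08 and -0.10 (19 tested), and lysosome and autophagy genes 0.38 and 0.04 (23 tested). Without Day3 replicate 2 or 1 the median of amino acid and one-carbon genes against E11.5 PGC was 0.59 or 1.64. Slc1a5, a glutamine transporter, read 37.4 and 32.2 in E11.5 PGC, 109 and 173 on Day3, 242 and 255 on Day6 and 81.9 and 82.4 in EG. It was above every end array in culture, rose against E11.5 PGC by 2.41 ± 0.26 (adjusted p = 0.00408) and differed from EG by 1.17 ± 0.26 (adjusted p = 0.0900).

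**Figure D4:**
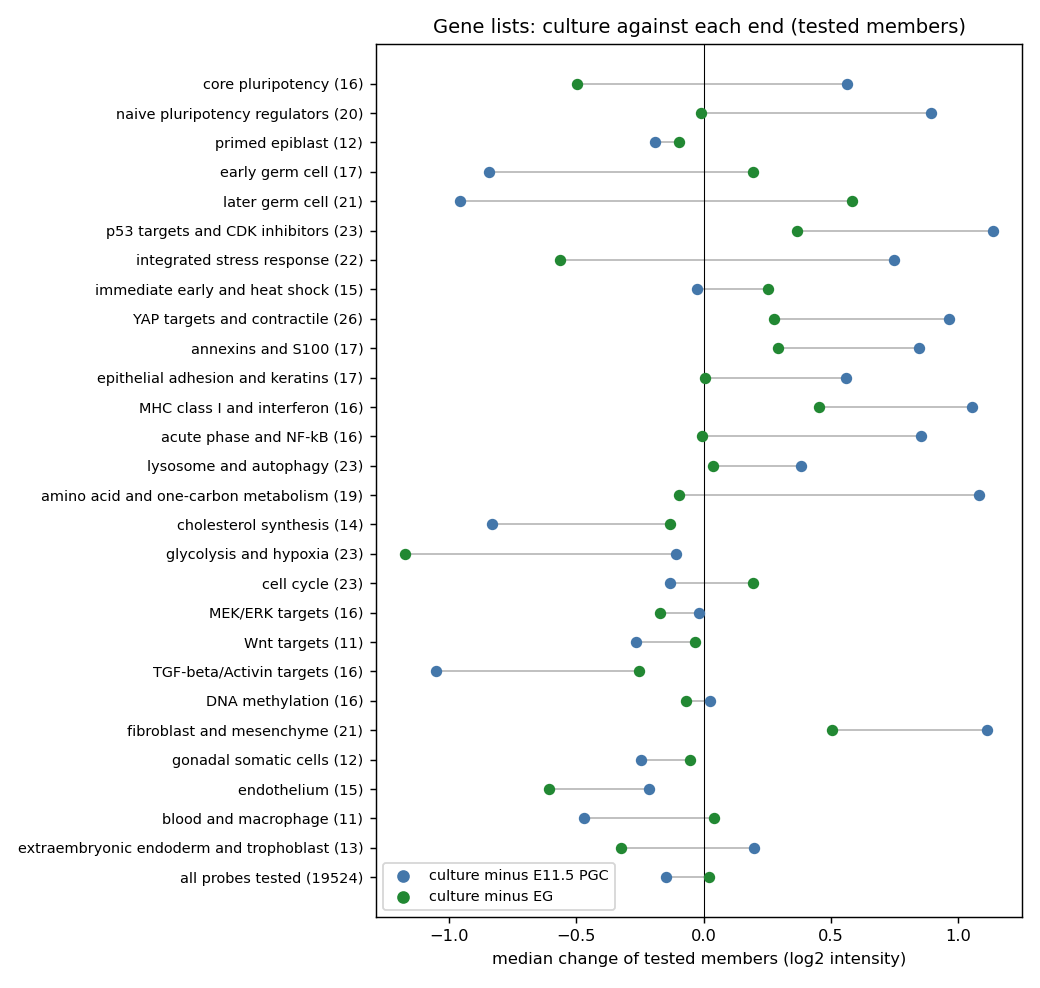
Median log2 difference of culture from E11.5 PGC (blue) and from EG (green) over the tested members of 27 gene lists, with the number of members in brackets and all probes in the last line. The medians of fibroblast and mesenchyme markers (1.11 and 0.50) and p53 targets (1.14 and 0.36) are among those above 0 against both ends, and those of glycolysis and hypoxia genes (-0.11 and -1.17) and TGF-beta and Activin targets (-1.05 and -0.25) among those below 0 against both.

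Markers of other cell types were examined by their summed intensity. The summed intensity of 21 fibroblast and mesenchyme markers was 1381 and 1749 in E11.5 PGC, 3037 and 2224 on Day3, 6719 and 3125 on Day6 and 3124 and 2458 in EG. The highest sum was on Day6 replicate 1, and the cultured and end arrays overlapped. Of the 21, 16 had a culture mean above both ends (3821 of 19524 among all probes). In 4 (Dcn, Sparc and, named after their values were seen, Col6a2 and Pdgfrb) the cultured arrays lay above all end arrays (2.53% of all probes). Of the 21, 0 were called, beside 0.190% of all probes. Dcn, the matrix proteoglycan decorin of fibroblasts, read 4.53 and 8.31 in E11.5 PGC, 75.9 and 173 on Day3, 68.2 and 18.9 on Day6 and 16.3 and 6.32 in EG, a difference of 3.39 ± 0.66 against E11.5 PGC and 2.66 ± 0.66 against EG (adjusted p = 0.0261 and 0.111). Acta2, smooth muscle actin, read 7.37 and 12.2 in E11.5 PGC, 25.4 and 8.76 on Day3, 198 and 6.14 on Day6 and 8.47 and 5.62 in EG, so that its culture mean rested on Day6 replicate 1. The part of such cells in the 37 calls was not tested.

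Markers of extraembryonic endoderm and trophoblast (13) summed to 451 and 403 in E11.5 PGC, 841 and 560 on Day3, 882 and 626 on Day6 and 508 and 607 in EG. Endothelial markers (15) were highest in EG, at 718 and 693, against 319 to 452 elsewhere, and blood and macrophage markers (11) were also highest in EG, at 592 and 662, against 183 to 430. Spic is best known in macrophages. Of the 11 blood and macrophage markers 0 were called outside both ends, and only 0.190% of all probes were. Their patterns differed: Csf1r read 25.9 and 38.0 in E11.5 PGC, 24.8 and 39.4 on Day3, 22.6 and 34.3 on Day6 and 34.9 and 25.8 in EG, with overlap between cultured and end arrays, and so did Cd14, at 2.99 and 3.56 in E11.5 PGC, 2.11 and 3.19 on Day3, 5.40 and 2.05 on Day6 and 5.34 and 5.17 in EG. The complement gene C1qa, named after its values were seen, read 5.03 and 31.3 in E11.5 PGC, 1.70 and 1.94 on Day3, 2.22 and 2.68 on Day6 and 1.60 and 1.37 in EG, highest in E11.5 PGC. Outside the list, and also named after its values were seen, the macrophage Fc receptor gene Fcgr3 read 19.5 and 22.2 in E11.5 PGC, 105 and 91.8 on Day3, 24.8 and 59.7 on Day6 and 14.6 and 16.6 in EG, above every end array in culture, and was called higher than both ends at Day3, and in the mean of the days only with the array series as a block. The part of macrophages in the rise of Spic was not tested.

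**Figure D5:**
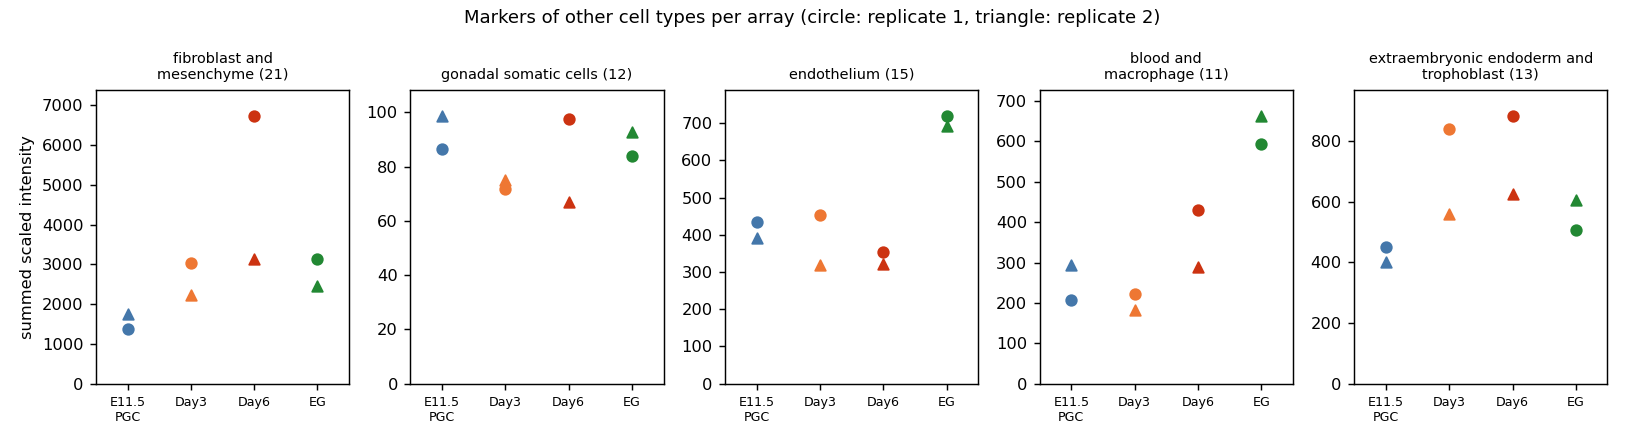
Summed scaled intensity of 5 lists of markers of other cell types on each array (circle, replicate 1; triangle, replicate 2), with the number of markers summed in brackets. Day6 replicate 1 has the highest sum of fibroblast and mesenchyme markers (6719), while gonadal somatic markers stay between 67.0 and 98.5 on all arrays.

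A looser reading gives larger sets that need not lie outside both ends. The mean of culture differed from the mean of the 2 ends in 374 probes (1.92%; 204 higher, 1.04%, and 170 lower, 0.871%), and in 1581 (8.10%) with the array series as a block. The 4 cultured arrays lay above all 4 end arrays for 494 probes (2.53%) and below them for 626 (3.21%), 5.74% together, including 11 of the 11 higher calls and 25 of the 26 lower ones. Without a value on any array of one side, 3 probes were present on the cultured arrays only, at an intensity of at most 2.04, and 7 on the end arrays only, at most 7.83.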

How the data were processed

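The deposited table gives linear Cy5 intensity from 8 TORAY one-colour oligonucleotide arrays, 2 per group by title, scaled by the authors so that each array's median is near 20. How the background was corrected and why 11674 cells are empty is not stated in any source used. Of 23473 probes, 16631 had 1 gene symbol in the platform annotation and 6842 none; 12622 symbols were current, 3947 updated and 62 kept as written.

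On log2 intensity, limma 3.58.1 (R 4.3.3, lmFit and eBayes) fitted the 4 groups together without a block. Contrasts used the probes with a value on all arrays of the groups concerned, with Benjamini-Hochberg adjustment over all of them. Values after ± are standard errors. The steps were tested on simulated data. There the call against both ends recovered 44% of 4-fold changes and 89% of 16-fold changes. A probe without a call may therefore still have changed. Genes named are the 12 highest and 12 lowest called by the smaller difference without overlap, the same with the array series as a block, the 5 highest and 5 lowest of each day alone, up to 4 members of each of 27 gene lists and a fixed panel. The members, lists and tests were chosen with earlier results of these data known. The number of arrays limits the precision. Alternatives were the array series or the replicate number as a block, series A alone, other scaling, a pseudocount, a filter on dim probes, another variance model, a joint adjustment, culture as 1 group, filled empty cells, and arrays left out.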

Additional observations from a re-analysis of the deposited data

Results flagged for a closer look

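Within the transcripts outside both ends, 10 named genes differed between Day6 and Day3 in limma with the array series as a block (Benjamini-Hochberg adjusted p under 0.05), and none did without it, so each value below rests on that term. The higher ones at Day6 were Klk8 (log2 Day6 minus Day3 3.02 ± 0.20), Rab38 (2.24 ± 0.19) and Nphs1 (1.72 ± 0.30). The lower ones were H19 (-3.33 ± 0.50), Enpp3 (-2.92 ± 0.22), Rab20 (-2.36 ± 0.30), Prtn3 (-2.22 ± 0.30), Cracr2b (-2.11 ± 0.24), Txnip (-1.48 ± 0.22) and Cd59a (-1.32 ± 0.21). Both arrays of one day were on the same side of both arrays of the other for all 10, which the call on these same arrays makes likely.

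Cldn6 lay above every end array at Day3 and below every one at Day6, a Day6 minus Day3 difference of -2.90 ± 0.29 that also passed with the array series as a block.

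Outside the tested set, 3 probes had a value on all 4 cultured arrays and on no end array. Their highest intensity was 2.04, under the floor of 4.24 used above, and why cells are empty is not given in the sources used here.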

How the results depend on the processing

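The counts below are given in 1 order throughout: probes higher than both ends, lower than both ends, outside at Day3, outside at Day6, culture mean against end mean, Day6 minus Day3 within the called probes, EG minus E11.5 PGC within them, and list members called. As reported they were 11, 26, 23, 20, 374, 0, 5 and 2. With the replicate block by array series they were 90, 99, 153, 184, 1581, 10, 8 and 8. With the replicate number as a block they were 62, 77, 74, 99, 886, 4, 5 and 8. Series A arrays alone gave 0, 0, 76, 0, 0, 0, 0 and 0, where the counts of single days take their spread from the EG pair alone. With a pseudocount of 2 they were 41, 40, 52, 61, 659, 4, 5 and 5, without the dimmest probes, of mean intensity under 4.24, 18, 32, 29, 37, 514, 0, 5 and 3, and with trended and robust variance 24, 34, 39, 47, 554, 3, 5 and 4. Quantile normalization gave 12, 28, 24, 21, 424, 0, 4 and 2, centring 12, 20, 19, 18, 357, 0, 4 and 1, and filled empty cells 10, 24, 18, 17, 316, 0, 4 and 2. The joint adjustment gave 0, 3, 5 and 2 for the first 4 counts and 1 list member, and no value for the single contrasts. Culture as 1 group gave 6, 8, 220, 0 and 1, with no value for single days or their difference. Without both series A culture arrays the counts were 100, 97, 53, 87, 743, 0, 5 and 15, and without both series B culture arrays 67, 65, 45, 8, 711, 0, 5 and 7.

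Leaving out 1 array at a time, the counts ranged from 0 to 22, 0 to 30, 0 to 46, 0 to 4, 3 to 321, 0 to 0, 0 to 5 and 0 to 2. The same with the array series as a block, added after seeing the data, gave 0 to 125, 0 to 139, 0 to 166, 0 to 181, 12 to 1541, 0 to 8, 2 to 7 and 0 to 17. For the 25 named genes called outside both ends, none of which changed sign, 301 values under the alternatives kept the call and 224 lost it. For the 129 not called, 2623 stayed uncalled and 80 gained a call. Of the list medians, 1028 moved by less than the spread and 52 by more. Deviations from group means of same-numbered arrays, across probes, correlated at r = 0.620 for E11.5 PGC and Day3, 0.547 for E11.5 PGC and Day6 and 0.694 for Day3 and Day6, and at -0.0246, 0.00502 and 0.0611 for EG with these, so the replicate numbers do not pair EG. Why more probes were called with the array series as a block was not tested. The empty cells and the dim ends of genes such as Mal limit what can be said of weakly expressed transcripts.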

Other observations

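Opposite positions on the 2 days were also seen in genes outside the naming rule, chosen after their values were seen. Bik, a pro-apoptotic BH3-only gene, was above both ends at Day3 and below both at Day6 (log2 Day6 minus Day3 -2.15). Smad9, a Smad of BMP signalling, was below both at Day3 and above both at Day6 (2.19). Of the 53 probes with such a pattern, 12 passed between the days in limma once the array series was a block, and 0 without it. Over all probes, 361 of 20015 (1.80%) passed with the block. The pattern itself requires the arrays of the 2 days to lie apart, so a larger share is built into the choice.

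The 2 probes with a value on all cultured arrays and on no end array that carry names were BC024139 and Ppef1. Of the 7 with values on all end arrays and on no cultured array, the 4 with names were Asgr1, Ssmem1, Col19a1 and Aadat, and the highest intensity among the 7 was 7.83.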
